A study of Homo sapiens with 16 samples.

Results

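The genes described here are 34 transcriptional targets of p53, taken as a named list and matched by symbol to 4 deposited expression tables. All 34 were found among the 18227 genes of those tables. They were measured by RNA sequencing in 16 libraries of A549 and H2023, established lines of human non-small cell lung cancer, as TPM (a transcript level scaled for length and to a fixed library total). Each line was represented by wild-type cells and by cells labelled as a knockout of ZC3H12A, the gene of the RNA-cleaving enzyme Regnase-1. Each genotype was grown in normal culture (3 days) and in stem-cell-enriched culture (7 days), which the titles shorten to Onco. The 8 groups are therefore A549 wild type and A549 clone g2-3, and H2023 wild type and H2023 clone g2-1, each in both cultures with 2 libraries per group. The knockout label rests on 1 clone per line, so a difference from wild type holds the edit together with anything else particular to that clone. Culture type and days in culture changed together and cannot be told apart. The labels do not say whether the 2 libraries of a group came from separate cultures, so p-values measure the spread between these libraries, which may be technical.

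The protein p53 is a transcription factor that is kept scarce by the ubiquitin ligase MDM2 and is stabilised by DNA damage and other stress. It then switches on genes that halt the cell cycle, repair DNA, alter metabolism or kill the cell, and it switches on MDM2 and the phosphatase PPM1D, which close a negative feedback loop. It binds DNA at a response element built from 2 copies of a 10-base motif. The cyclin-dependent kinase inhibitor p21, encoded by CDKN1A, carries much of the arrest and lowers cell-cycle genes indirectly.

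Response elements near start sites are shown to place 4 of the members on the genome, because binding was not measured in this study. Promoter windows of RefSeq (GRCh38.p14), running from 250 bases before to 50 bases after each start site, were present for 26 of the 34 members in 38 windows. A match to the p53 response element, with both 10-base copies, a spacer of 0 to 1 base and at most 2 mismatches outside the fixed C and G of each copy, occurred in 4 members. The element reads alike on both strands, so 1 search covered both. The same search matched 187 of 35116 windows in the table (0.533%), and 184 of 27305 genes (0.674%) had a match in any window. A match is a description of letters and not evidence of binding, and the windows miss elements in introns or further upstream. Each line gives the + strand, 5′ to 3′, with the matched element in capitals.
FAS, chr10:88991304-88991333: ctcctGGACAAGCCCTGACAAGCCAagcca
DDB2, chr11:47214975-47215004: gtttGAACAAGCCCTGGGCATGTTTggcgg
AEN, chr15:88621301-88621330: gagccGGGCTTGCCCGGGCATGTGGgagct
MDM2, chr12:68808903-68808962: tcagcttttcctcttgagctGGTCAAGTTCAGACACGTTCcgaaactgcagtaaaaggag
The DDB2 element had 0 mismatches with a spacer of 1 base and began 6 bases after a start site. Those of FAS, AEN and MDM2 had 2 mismatches each and began 122, 34 and 94 bases before a start site. Taken with flanking bases on each side, the elements of DDB2, FAS and AEN overlapped an annotated exon, while that of MDM2 did not. With the knockout label, FAS and DDB2 were higher than in wild type in A549 stem-cell-enriched culture by limma, as described below. AEN and MDM2 did not pass the limma test in any knockout comparison. In A549 normal culture AEN was called lower in the authors' deposited table.

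All 34 members were expressed, with means over the 16 libraries from 1.71 to 166 TPM. In every library 30 of them reached 1 TPM, and 0 were listed at 0 in any library. Libraries held 13824 to 14508 genes at 1 TPM or more. TPM keeps no sequencing depth, so the depth is unknown and no counting interval is given. Mitochondrial genes held between 10.3% and 18.7% of a library under normal conditions, and between 19.53% and 25.58% in enriched culture. Fewer cells of a kind and less RNA per cell cannot be told apart in such bulk libraries. Of the marker lists, the 5 epithelial genes summed to 1450 to 10700 TPM. The fibroblast list summed to 1.34 to 10.1 TPM, the immune list to 0.48 to 66.2 TPM and the endothelial list to 0 to 2.76 TPM. Of the listed genes, 3 of 5 fibroblast, 2 of 5 immune and 1 of 4 endothelial genes were analysed.

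The mRNA of the targeted gene was higher with the knockout label than in wild type in 3 of 4 comparisons. ZC3H12A (chromosome 1, 37474552 to 37484379, GRCh38) was at 30.7 and 34.9 TPM in A549 normal wild type and at 16.9 and 19.9 TPM in the libraries labelled knockout, a log2 fold change of -0.80 ± 0.14 (SE). In A549 stem-cell-enriched culture it was at 48.5 and 49.2 TPM against 60.2 and 55.6 TPM with the label. H2023 showed 26.8 and 29.8 against 41.5 and 41.5 TPM in normal culture, and 32.5 and 26.4 against 94.6 and 69.2 TPM in stem-cell-enriched culture. An edit need not lower the mRNA of its gene, so these values do not check the protein. The phrase "labelled knockout" is kept throughout for that reason.

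**Figure D1:**
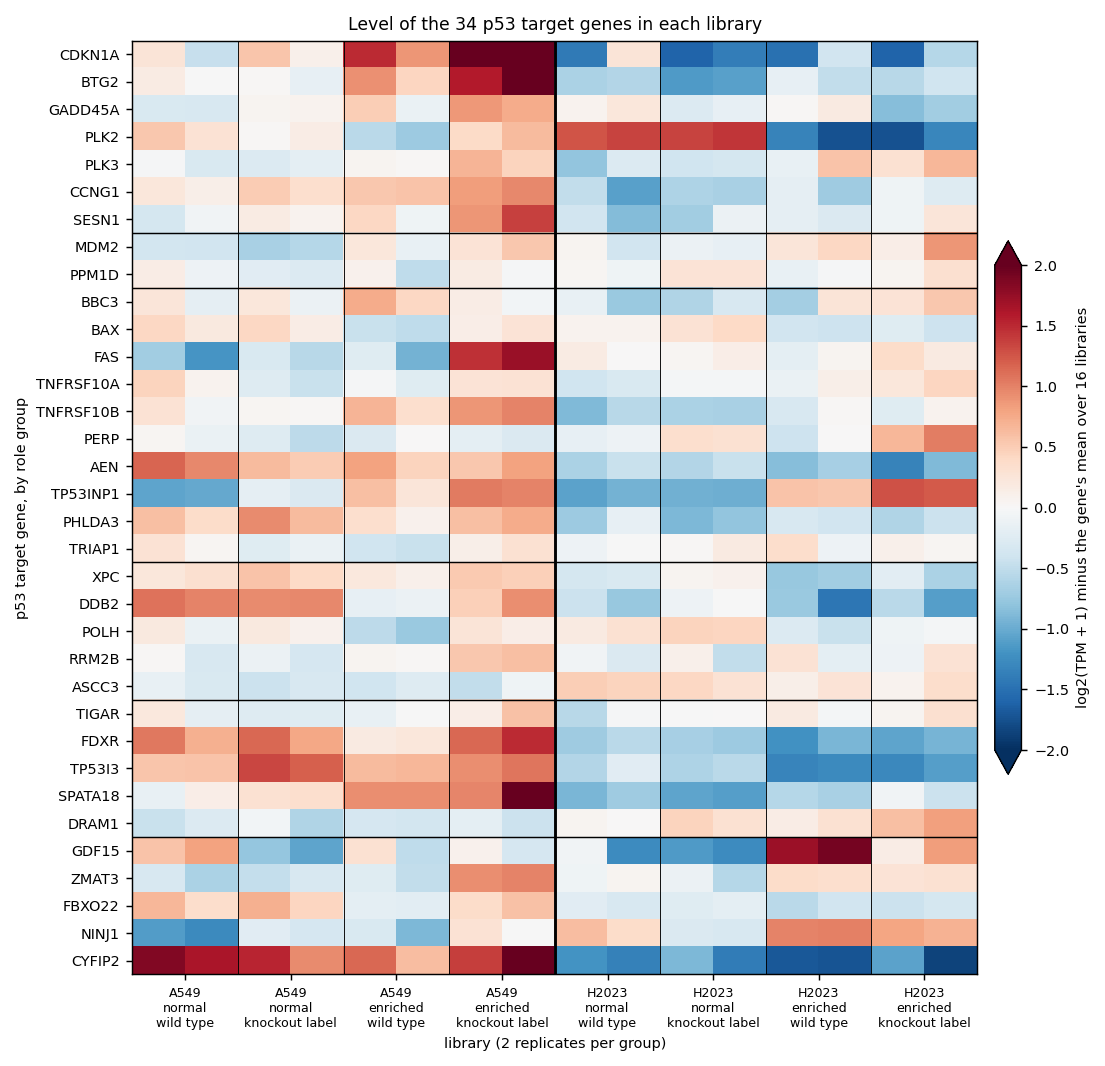
Level of the 34 p53 target genes (rows, in 6 role groups) in the 16 libraries (columns), as log2(TPM + 1) minus the gene's mean over all libraries. The 2 A549 stem-cell-enriched libraries labelled knockout stand out as a warm block that includes CDKN1A (238 and 229 TPM) and FAS (35.4 and 43.0 TPM).

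The comparison of the knockout label with wild type asks how the p53 programme moved with the edit in each line and culture, and A549 in stem-cell-enriched culture gave the largest count of changed members. There 11 of the 34 members rose and 0 fell (limma on log2(TPM + 1), Benjamini-Hochberg adjustment over all genes, threshold 0.05). Of all 18227 genes, 13.2% passed the same test in either direction, 6.04% upward and 7.2% downward. The authors' deposited table called 18 members higher and 0 lower, against 9.29% of tested genes higher and 11.4% lower (20.7% in all). The 2 groups did not overlap for 28 members, 27 of them higher, where 32.7% of all genes were higher and 27.8% lower without overlap. The members' median log2 fold change was 0.54, against 0.03 over all genes, and 31 of 34 were above 0. When TPM was rescaled to nuclear genes or centred on each library's median, the called members numbered 10 and 12, all higher. With the spread taken from all 8 libraries of the line 16 members were called. Leaving out 1 of the 4 compared libraries left 1 library in a group, so no call here is shown to hold with a library left out. The members' median log2 fold change then ran from 0.48 to 0.6.

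**Figure D2:**
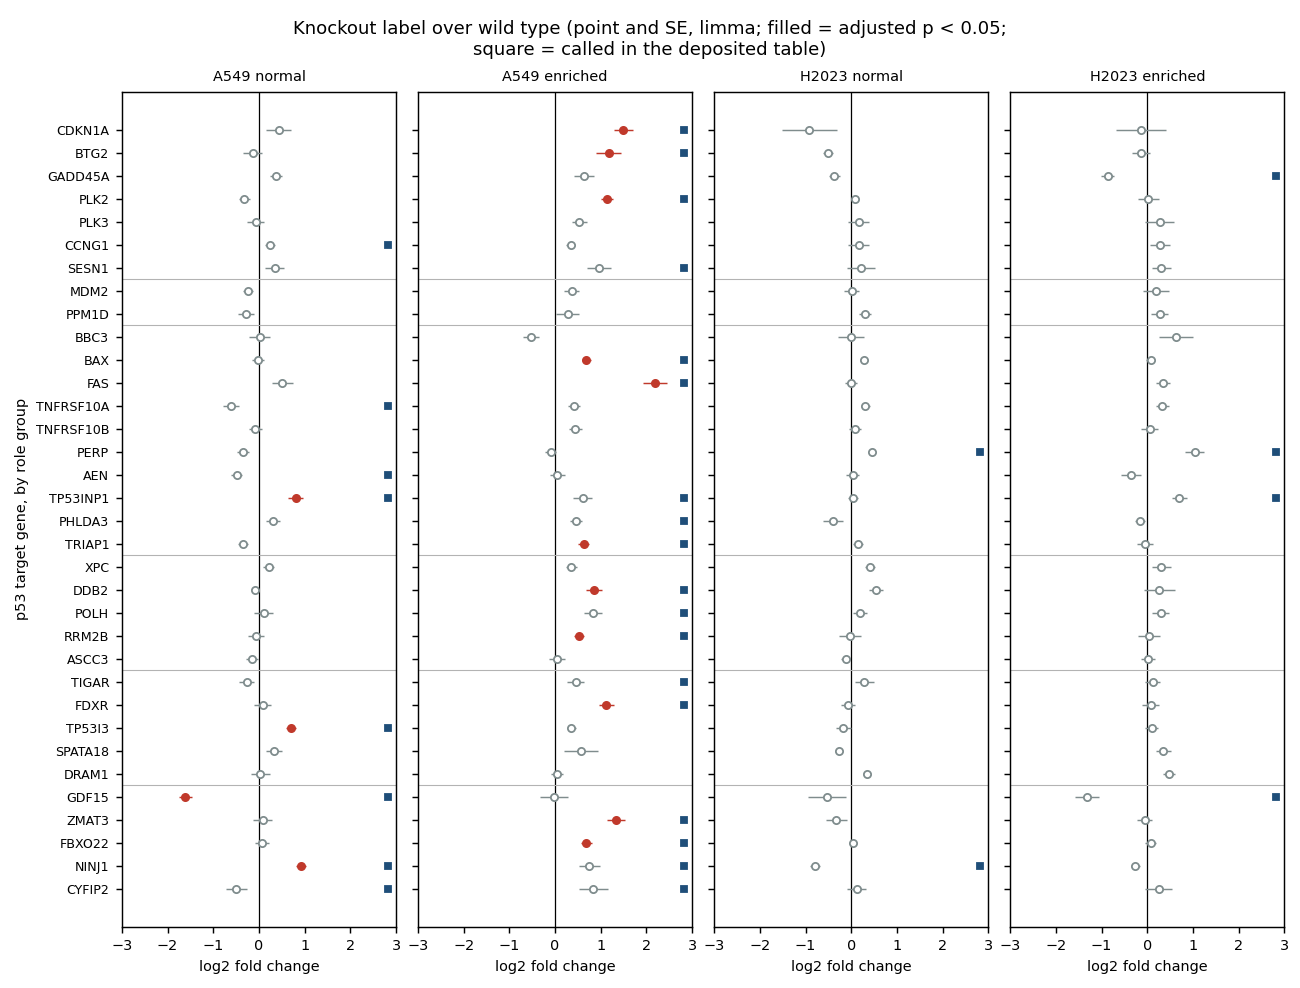
Log2 fold change of libraries labelled knockout over wild type on the log2(TPM + 1) scale for each member (point, with bars of 1 SE, 2 libraries per group), in 4 comparisons. Filled points passed limma's adjusted threshold and squares at the right edge mark calls in the authors' deposited table, with 11 filled points in A549 enriched, 4 in A549 normal and 0 in either H2023 panel.

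Among the arrest genes in A549 stem-cell-enriched culture, 3 of 7 rose by limma and all 7 lay above wild type without overlap. Over all genes, 6.04% rose by limma and 32.7% were higher without overlap. CDKN1A (chromosome 6, 36676460 to 36687339), the p21 gene, was at 102 and 66.9 TPM in wild type and at 238 and 229 TPM with the knockout label. Both labelled libraries were above both wild-type libraries, and the log2 fold change was 1.49 ± 0.21 (SE, limma adjusted p = 0.0134). BTG2, an antiproliferative gene, went from 6.86 and 4.58 to 11.4 and 16.9 TPM, with a log2 fold change of 1.17 ± 0.27 (SE, limma adjusted p = 0.0493, and 0.0511 with TPM rescaled to nuclear genes). The kinase gene PLK2 was at 53.8 and 47.0 TPM in wild type and at 103 and 122 TPM with the label, a log2 fold change of 1.14 ± 0.13 (SE, limma adjusted p = 0.00889). SESN1, a sestrin that restrains mTORC1, was at 7.15 and 4.75 TPM against 10.2 and 14.8 TPM with the label. It missed limma's threshold (log2 fold change 0.96 ± 0.27 SE, adjusted p = 0.0764) but had an adjusted p of 0.00221 in the authors' deposited table. GADD45A, a growth arrest and stress gene, was at 22.8 and 14.6 TPM against 30.1 and 27.4 TPM and passed neither test.

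Both feedback genes missed both tests in the same comparison. MDM2 was at 54.7 and 41.8 TPM in wild type and at 56.3 and 67.6 TPM with the label, so its groups did not overlap, yet its log2 fold change of 0.36 ± 0.17 (SE) had a limma adjusted p of 0.226. Exons of MDM2 overlap those of CPM on the opposite strand. CPM was at 4.92 and 5.08 TPM against 0.96 and 1.42 TPM, and its part in the MDM2 value was not tested. PPM1D was at 8.10 and 5.06 TPM against 8.59 and 7.49 TPM, with overlapping groups and a log2 fold change of 0.28 ± 0.25 (SE, limma adjusted p = 0.507).

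Of the 10 cell-death genes, 3 rose in A549 stem-cell-enriched culture by limma and 5 were higher in the authors' deposited table. The shares over all genes were 6.04% by limma and 9.29% of tested genes in the authors' deposited table. FAS (chromosome 10, 88990582 to 89015785), the death receptor, had the largest change of any member. It was at 10.3 and 5.87 TPM in wild type and at 35.4 and 43.0 TPM with the label, a 4.55-fold difference on the log2(TPM + 1) scale (log2 fold change 2.19 ± 0.26 SE, limma adjusted p = 0.00979). Exons of FAS overlap those of ACTA2 on the opposite strand, and whether counting used the strand is not given in the sources used here. ACTA2 itself was at 11.1 and 7.29 TPM in wild type and at 19.3 and 26.3 TPM with the label, and its part in the FAS value was not tested. BAX, the pore-forming effector of mitochondrial apoptosis, went from 119 and 114 to 179 and 195 TPM, with a log2 fold change of 0.68 ± 0.10 (SE, limma adjusted p = 0.0151). TRIAP1, a small inhibitor of apoptosis, went from 33.1 and 31.8 to 47.4 and 54.5 TPM (log2 fold change 0.63 ± 0.12 SE, limma adjusted p = 0.0286).

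The cell-death genes did not all move one way. BBC3, which encodes the BH3-only protein PUMA, was the 1 member whose labelled libraries lay below both wild-type libraries, at 15.4 and 12.2 TPM in wild type and 9.91 and 8.51 TPM with the label. Its log2 fold change of -0.53 ± 0.18 (SE) passed neither test (limma adjusted p = 0.125). The death receptor gene TNFRSF10B was at 136 and 107 TPM against 157 and 170 TPM, with a log2 fold change of 0.44 ± 0.14 (SE, limma adjusted p = 0.11). PERP, a desmosomal membrane protein linked to apoptosis, was at 80.3 and 98.7 TPM against 85.6 and 80.1 TPM, with overlapping groups. TP53INP1, a stress gene that promotes p53-dependent death, was at 4.87 and 3.57 TPM against 7.00 and 6.73 TPM and was called higher in the authors' deposited table (adjusted p = 0.0174) but not by limma (adjusted p = 0.123).

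In the remaining role groups, 2 of 5 repair and nucleotide genes, 1 of 5 metabolic and mitochondrial genes and 2 of 5 genes of other roles rose. These are limma calls, and 6.04% of all genes rose by the same test. DDB2, which recognises ultraviolet lesions, was at 22.3 and 23.1 TPM in wild type and at 35.5 and 48.7 TPM with the label (log2 fold change 0.85 ± 0.17 SE, limma adjusted p = 0.0365). RRM2B, a subunit of the p53-inducible ribonucleotide reductase, went from 23.1 and 22.6 to 32.6 and 34.2 TPM (log2 fold change 0.53 ± 0.11 SE, limma adjusted p = 0.0393). FDXR, the mitochondrial ferredoxin reductase, went from 16.1 and 16.7 to 32.4 and 41.6 TPM (log2 fold change 1.12 ± 0.16 SE, limma adjusted p = 0.0134). In each of these 3 genes both labelled libraries were above both wild-type libraries.

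ZMAT3, an RNA-binding protein, was at 3.5 and 2.79 TPM in wild type and at 9.16 and 9.56 TPM with the label, with a log2 fold change of 1.33 ± 0.19 (SE, limma adjusted p = 0.0145). FBXO22, the substrate receptor of a ubiquitin ligase, went from 36.6 and 36.3 to 54.4 and 63.9 TPM (log2 fold change 0.68 ± 0.12 SE, limma adjusted p = 0.0247). FBXO22 shares exonic sequence with NRG4 on the opposite strand, and NRG4 was at 3.54 and 2.88 TPM against 9.67 and 9.58 TPM with the label. Its part in the FBXO22 value was not tested. GDF15, a secreted stress cytokine, was at 80.6 and 45.2 TPM against 69.1 and 51.4 TPM, with overlapping groups and a log2 fold change of -0.02 ± 0.30 (SE). NINJ1, which drives plasma membrane rupture, was at 61.9 and 40.4 TPM against 93.5 and 76.3 TPM and was called in the authors' deposited table only (adjusted p = 0.0174). CYFIP2, a subunit of the WAVE actin regulator, was likewise called there only, at 10.1 and 6.70 TPM against 12 and 20.2 TPM (adjusted p = 6.3e-07). CYFIP2 shares exonic sequence with ADAM19 on the opposite strand, and ADAM19 was at 0.97 and 1.55 TPM against 11.6 and 8.73 TPM. The part of ADAM19 in the CYFIP2 value was not tested. POLH, PHLDA3 and TIGAR completed the 18 members called in that table, with deposited log2 fold changes of 0.73, 0.57 and 0.68.

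Markers of other cell types and of the epithelium moved with the label in A549 stem-cell-enriched culture. The epithelial sum, carried by the keratin genes KRT8 and KRT18, overlapped at 5230 and 6570 TPM in wild type and 4990 and 7190 TPM with the label. Within that list, the adhesion gene EPCAM fell from 9.4 and 7.94 to 0.82 and 1.03 TPM (limma adjusted p = 0.00452) and the keratin gene KRT19 from 46.8 and 101 to 3.29 and 5.92 TPM (limma adjusted p = 0.00819). The cadherin gene CDH1 of the same list went the other way without overlap, at 73.1 and 62.4 against 84.5 and 79.0 TPM. The fibroblast sum was lower without overlap, at 6.06 and 5.41 against 3.31 and 1.34 TPM, as was the endothelial marker PECAM1, at 2.76 and 1.77 against 0.63 and 0.81 TPM. The immune sum overlapped at 66.2 and 33.6 against 34.6 and 29 TPM, while its member LYZ, the lysozyme gene, fell from 18.6 and 6.81 to 0.28 and 0 TPM (limma adjusted p = 0.0118). The part of these markers in the members' values was not tested.

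**Figure D3:**
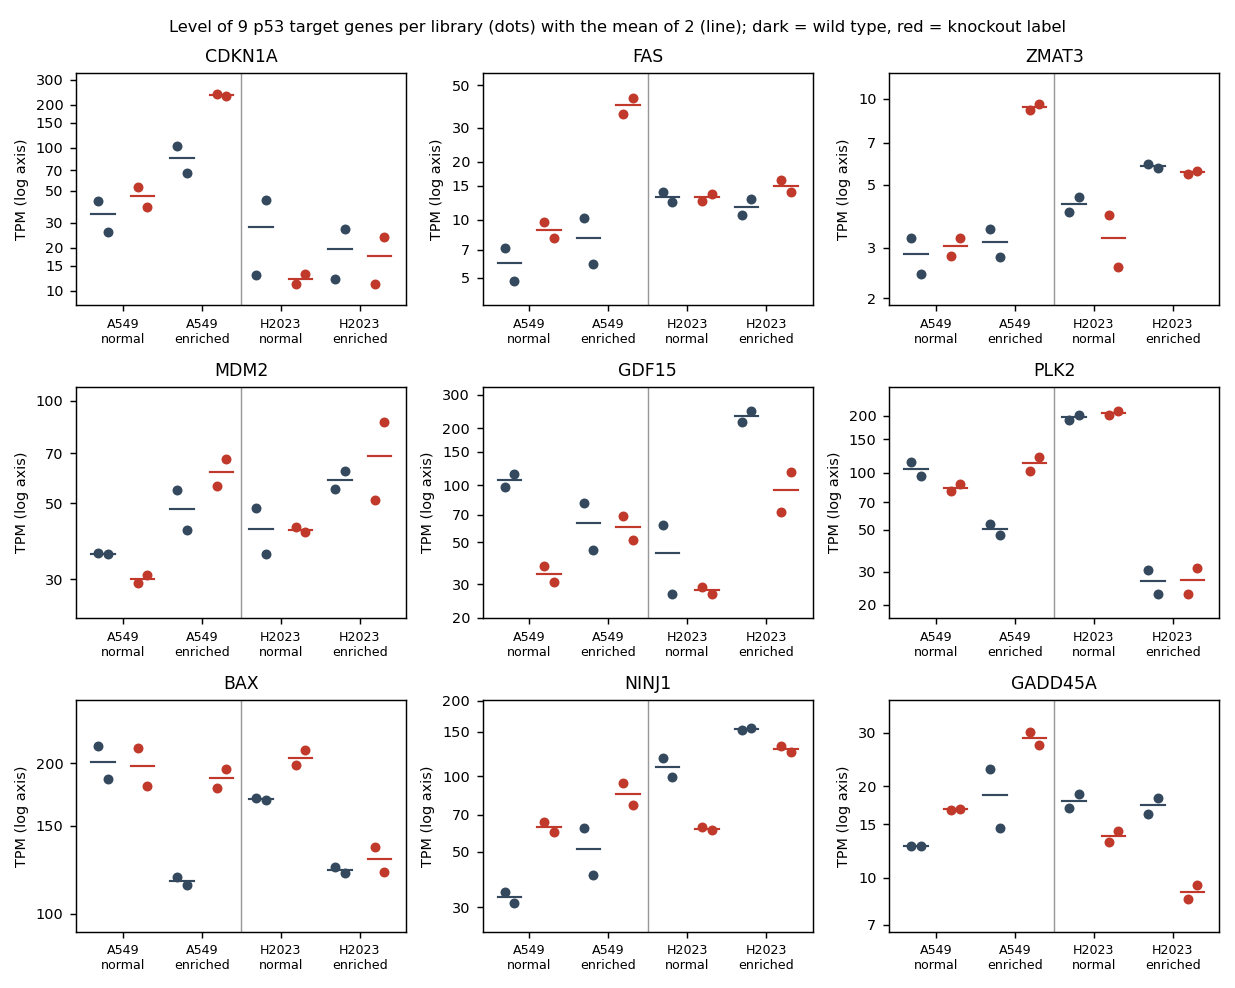
TPM on a log axis of 9 members in every library (dots) with the mean of the 2 libraries of a group (line), dark for wild type and red for the knockout label. The red dots of CDKN1A, FAS and ZMAT3 in A549 enriched culture lie above all other dots of the line, and GDF15 in A549 normal culture lies below wild type (37.4 and 30.9 against 97.3 and 115 TPM).

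In A549 normal culture the members moved in both directions. By limma 3 rose and 1 fell, against 10.8% of all genes called (4.54% higher, 6.28% lower), so the members' share was near that background. The authors' deposited table called 4 higher and 4 lower, where 22.1% of tested genes were called (11.2% higher, 10.9% lower). The median log2 fold change of the members was 0 and that of all genes was -0.03. Without overlap, 10 members were higher and 12 lower, where 27.2% and 34.6% of all genes were. With the spread of the line, 5 members were called from all libraries. Leaving out 1 library left 1 in a group, so no call here is shown to hold with a library left out. The members' median log2 fold change then ran from -0.13 to 0.1.

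GDF15 fell in A549 normal culture, from 97.3 and 115 TPM in wild type to 37.4 and 30.9 TPM with the label (log2 fold change -1.61 ± 0.14 SE, limma adjusted p = 0.00873). NINJ1 rose from 34.5 and 31.1 to 65.4 and 60.0 TPM (log2 fold change 0.91 ± 0.11 SE, limma adjusted p = 0.0144). TP53I3, a quinone oxidoreductase linked to oxidative stress, rose from 54.5 and 55.2 to 94.1 and 85.2 TPM (log2 fold change 0.70 ± 0.10 SE, limma adjusted p = 0.0191). Its exons overlap those of FAM228B on the opposite strand, which was at 3.29 and 1.92 TPM against 6.56 and 3.63 TPM. TP53INP1 was low and rose from 0.87 and 0.91 to 2.44 and 2.16 TPM (log2 fold change 0.80 ± 0.16 SE, limma adjusted p = 0.0423), a call lost with a pseudocount of 0.1 (adjusted p = 0.0612). For each of these 4 genes both labelled libraries lay on the same side of both wild-type libraries.

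4 more members were called in the authors' deposited table only. The death receptor gene TNFRSF10A was lower, at 30.6 and 23.3 TPM in wild type and 18.4 and 16 TPM with the label (deposited adjusted p = 0.0161). AEN, a nuclease that acts in apoptosis, was lower at 50.5 and 43.9 against 34.7 and 31.9 TPM (deposited adjusted p = 0.019). CYFIP2 was lower at 17.0 and 14.5 against 13.4 and 8.64 TPM, and CCNG1, the cyclin G1 gene, was higher at 65.4 and 61.0 against 80.0 and 70.8 TPM. The deposited adjusted p-values of those 2 genes were 0.00916 and 0.0444. ADAM19, whose exons overlap those of CYFIP2, was at 1.47 and 1.15 against 15.6 and 8.86 TPM. The part of ADAM19 in this CYFIP2 value was not tested either.

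Most best-known effectors passed neither test in A549 normal culture. CDKN1A was at 42.9 and 25.8 TPM in wild type and 53.2 and 38.6 TPM with the label, with overlapping groups. MDM2 (35.8 and 35.5 against 29.1 and 30.8 TPM) and PPM1D (8.54 and 7.04 against 6.35 and 6.12 TPM) lay below wild type without overlap but passed neither test. BAX was at 216 and 187 against 215 and 181 TPM, and BBC3 at 10.7 and 7.67 against 10.6 and 8.04 TPM, both with overlap. FAS (7.18 and 4.84 against 9.77 and 8.01 TPM), GADD45A (12.7 and 12.7 against 16.7 and 16.8 TPM) and SESN1 (3.79 and 4.81 against 5.87 and 5.45 TPM) lay above wild type without overlap and passed neither test. TNFRSF10B was at 103 and 80.8 against 86.8 and 86.4 TPM, with overlap. The epithelial markers moved with the label here, summing to 7420 and 7630 TPM in wild type and 2520 and 1450 TPM in the labelled libraries, and their part in the result was not tested.

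H2023 gave no call by limma in either culture. In normal culture 0 of 34 members passed, where 0% of all genes did, and 10 members had an unadjusted p under 0.05, against 18.2% of all genes. The authors' deposited table called 1 member higher and 1 lower of 33 with an adjusted p-value, against 3.84% of tested genes higher and 6.97% lower (10.8% in all). NINJ1 was the lower one, at 118 and 99.3 TPM in wild type and 62.4 and 60.9 TPM with the label (deposited adjusted p = 1.9e-06). The higher one was PERP, at 88.0 and 91.7 against 124 and 121 TPM (deposited adjusted p = 0.000973). In both genes the groups did not overlap. Without overlap, 10 members were higher and 7 lower, where 26.1% and 24.5% of all genes were.

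In H2023 stem-cell-enriched culture 0 of 34 members passed limma, where 0% of all genes did, and 6 members had an unadjusted p under 0.05, against 15.5% of all genes. The deposited table of the authors called 2 higher and 2 lower, against 2.22% of tested genes higher and 2.85% lower (5.07% in all). GDF15 was lower, at 216 and 247 TPM in wild type and 72.2 and 117 TPM with the label (deposited log2 fold change -1.37 ± 0.28 SE, adjusted p = 9.13e-05). GADD45A was lower, at 16.2 and 18.3 against 8.48 and 9.47 TPM (deposited adjusted p = 0.00602). PERP was higher, at 73.4 and 99.3 against 157 and 200 TPM, and TP53INP1 was higher, at 4.74 and 4.66 against 8.39 and 8.11 TPM. Their deposited adjusted p-values were 0.00602 and 0.0151, and the groups of all 4 genes did not overlap. Without overlap, 11 members were higher and 6 lower, where 28.6% and 18.9% of all genes were.

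The epithelial sum, carried by KRT8 and KRT18, was higher with the label in both H2023 cultures. In normal culture it was 7300 and 5890 TPM in wild type and 10700 and 9820 TPM with the label. Under stem-cell enrichment it was 3450 and 3420 against 6550 and 7090 TPM. Other genes of that list went the other way in normal culture. There KRT19 was lower without overlap, at 374 and 258 against 126 and 130 TPM, as was EPCAM, at 20.25 and 17.8 against 15.59 and 11.85 TPM. Under enrichment KRT19 was higher, at 406 and 441 against 505 and 798 TPM, and EPCAM overlapped. CDH1 overlapped in both cultures. The fibroblast sum was lower with the label in both, at 7.97 and 9.07 against 4.58 and 2.76 TPM and at 6.26 and 10.1 against 4.03 and 4.08 TPM. The part of these markers in the members' values was not tested.

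The replicates of CDKN1A disagreed in H2023. It was at 12.8 and 43.2 TPM in normal wild type against 11.1 and 13.2 TPM with the label, and at 12 and 27.1 TPM in stem-cell-enriched wild type against 11.2 and 23.8 TPM. MDM2 was at 48.4 and 35.5 against 42.6 and 41.2 TPM in normal culture and at 55.2 and 62.0 against 51.2 and 86.8 TPM in stem-cell-enriched culture, with overlap in both. FAS, the most changed member in A549, was at 13.9 and 12.3 against 12.6 and 13.6 TPM, then at 10.7 and 12.8 against 16 and 14.0 TPM. GDF15 in normal culture also had an uneven wild-type pair, at 61.6 and 26.6 TPM, with 29.1 and 26.6 TPM in the labelled libraries.

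Of the other well-known effectors in H2023, 0 passed either test except as named above. BAX was at 171 and 169 against 198 and 213 TPM in normal culture and at 124 and 121 against 136 and 121 TPM in stem-cell-enriched culture. BBC3 was at 7.93 and 4.86 against 5.49 and 6.91 TPM, then at 5.12 and 10.7 against 10.9 and 13.4 TPM. TNFRSF10B was at 45.6 and 57.5 against 54.5 and 53.4 TPM, then at 68.0 and 86.6 against 71.2 and 89.0 TPM. PPM1D lay above wild type in both cultures, at 7.85 and 7.07 against 9.36 and 9.41 TPM and at 6.72 and 7.49 against 7.96 and 9.69 TPM. SESN1 was at 3.69 and 2.36 against 2.77 and 4.64 TPM, then at 4.42 and 4 against 4.76 and 6.25 TPM. GADD45A in normal culture was at 16.9 and 18.9 against 13.1 and 14.2 TPM.

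Whether the knockout-label effect differed between cultures was tested with an interaction term over the 8 libraries of a line. In A549 the effect was higher in stem-cell-enriched than in normal culture for 7 of 34 members and lower for 0, against 6.65% of all genes called (3.52% higher, 3.13% lower). The 7 were FAS (difference of log2 fold changes 1.67 ± 0.38 SE), GDF15 (1.59 ± 0.37), PLK2 (1.46 ± 0.19), ZMAT3 (1.25 ± 0.28), TNFRSF10A (1.02 ± 0.22), TRIAP1 (0.98 ± 0.17) and DDB2 (0.93 ± 0.21), with limma adjusted p-values from 0.00995 to 0.0445. GDF15 fell in normal culture and was not called in stem-cell-enriched culture. CDKN1A, whose effect passed the test only in stem-cell-enriched culture, was not among the 7. The difference of the authors' deposited fold changes called 11 members, all higher, against 9.8% of tested genes. The limma count of 7 dropped with each of the 8 libraries left out. It was 1 without A549 normal wild-type replicate 1, without either normal knockout-labelled replicate or without stem-cell-enriched knockout-labelled replicate 2. The count was 2 without stem-cell-enriched wild-type replicate 2, and 3 without normal wild-type replicate 2, without stem-cell-enriched wild-type replicate 1 or without stem-cell-enriched knockout-labelled replicate 1. In H2023 0 members differed between cultures by limma, where 0% of all genes did, with 5 members at an unadjusted p under 0.05, against 7.1% of all genes. The difference of the authors' deposited fold changes called 0 members there too, against 0.506% of tested genes.

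The difference between lines was tested in each culture, as H2023 minus A549. In normal culture 6 members differed, 2 higher and 4 lower, against 12.3% of all genes (6.89% higher, 5.4% lower). NINJ1 moved in opposite directions in the lines, with a difference of -1.71 ± 0.16 (SE, limma adjusted p = 0.00168). TNFRSF10A (0.92 ± 0.21) and PERP (0.80 ± 0.16) had the higher effect in H2023, whereas TP53I3 (-0.87 ± 0.19), TP53INP1 (-0.76 ± 0.20) and GADD45A (-0.74 ± 0.17) had the higher effect in A549. In stem-cell-enriched culture 7 members differed, 1 higher and 6 lower, against 9.85% of all genes (5.83% higher, 4.02% lower). FAS (-1.85 ± 0.35), GADD45A (-1.50 ± 0.29), ZMAT3 (-1.39 ± 0.24), PLK2 (-1.11 ± 0.28), FDXR (-1.05 ± 0.25) and BAX (-0.61 ± 0.15) had the higher effect in A549, and PERP (1.15 ± 0.26) in H2023. The limma adjusted p-values of those 7 ran from 0.0147 to 0.0492. From the authors' deposited fold changes 7 members differed in normal culture, against 19.2% of tested genes, and 12 in stem-cell-enriched culture, against 15% of tested genes. These 2 comparisons share no library with each other, but each shares its A549 libraries with the A549 comparisons above.

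The counts between lines also depended on single libraries. In normal culture the count was 8 without H2023 wild-type replicate 1, 3 without A549 wild-type replicate 2 or without H2023 wild-type replicate 2, and 2 without A549 knockout-labelled replicate 1. It was 1 without A549 wild-type replicate 1, without A549 knockout-labelled replicate 2 or without either H2023 knockout-labelled replicate. In stem-cell-enriched culture it was 0 without A549 knockout-labelled replicate 2, and 1 without A549 knockout-labelled replicate 1 or H2023 knockout-labelled replicate 2. It was 3 without A549 wild-type replicate 2 or H2023 knockout-labelled replicate 1, 4 without wild-type replicate 1 of either line and 5 without H2023 wild-type replicate 2.

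The next comparison asks how the members differed between stem-cell-enriched and normal culture within a genotype. In A549 wild type 5 members rose and 8 fell, against 40.6% of all genes called (19% higher, 21.6% lower). The A549 libraries labelled knockout had 14 members higher and 0 lower, against 20.8% of all genes (10.9% higher, 9.87% lower). In H2023 wild type 3 rose and 4 fell, against 21.4% of all genes (3.96% higher, 17.4% lower). In H2023 labelled knockout 5 rose and 4 fell, against 26.9% of all genes (7.68% higher, 19.2% lower). The 2 A549 contrasts compare different libraries, but their spread was estimated together from all 8 libraries of the line. Each shares its stem-cell-enriched libraries with the knockout comparison in that culture and its normal libraries with that in normal culture.

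Scaling moved the split between higher and lower members in 3 of these contrasts. With TPM rescaled to nuclear genes the members split 10 higher and 7 lower in A549 wild type, 5 and 2 in H2023 wild type, and 10 and 2 in H2023 labelled knockout. With libraries centred on their median the splits were 9 and 8, 6 and 2, and 12 and 2. A549 labelled knockout had 18 and 16 higher and 0 lower under these scalings. Centring moved the median of all genes by 0.25 (log2) in H2023 wild type and by 0.15 in H2023 labelled knockout. Rescaling to nuclear genes moved it by 0.24 and 0.22 in those contrasts and by 0.14 in A549 wild type. Shares of all genes called under these scalings are not given here, so these splits cannot be read as particular to the members.

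**Figure D4:**
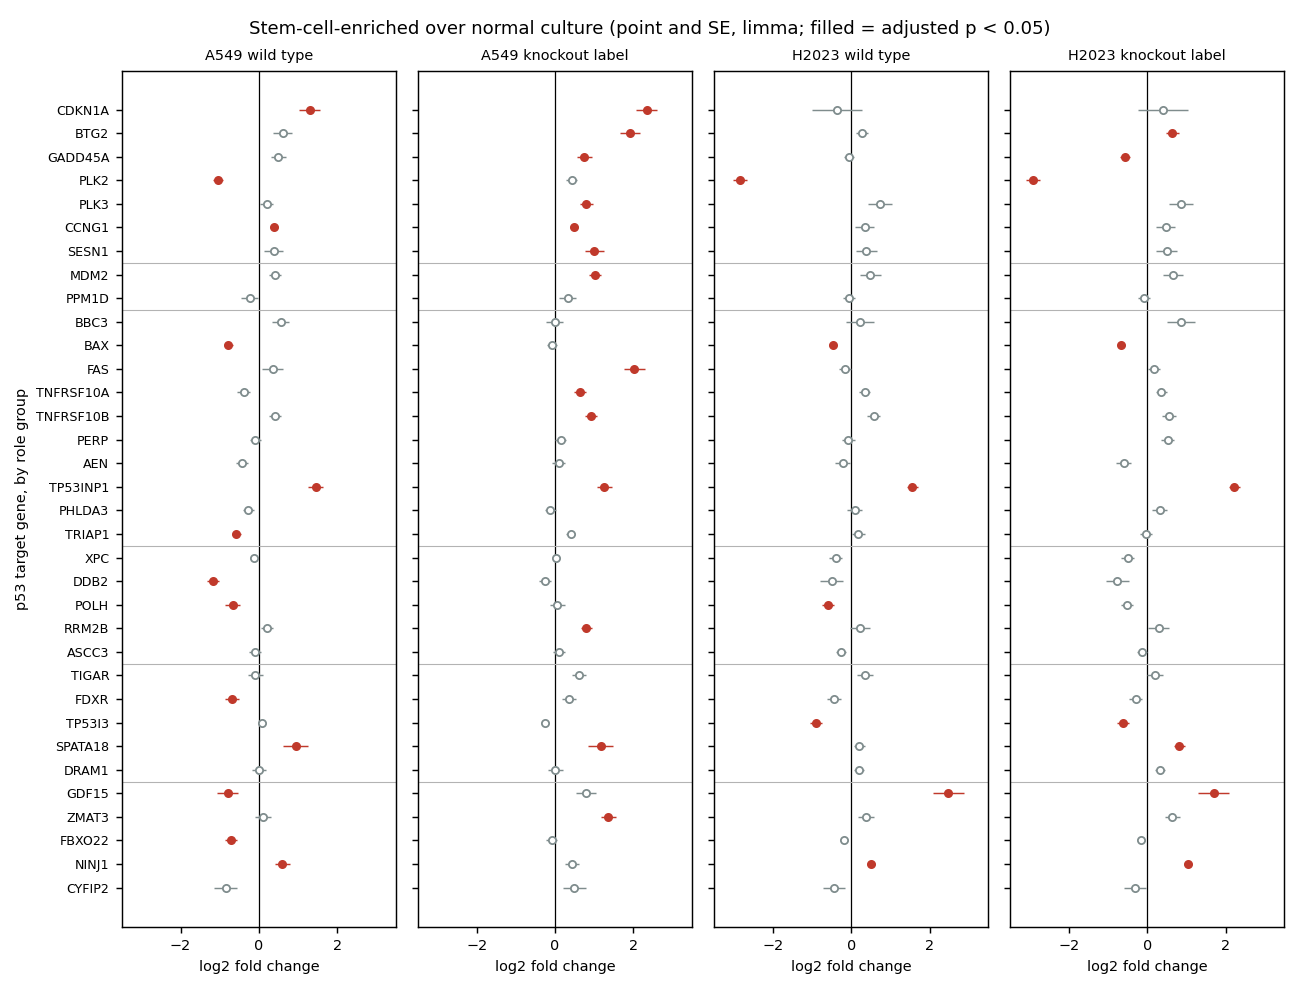
Log2 fold change of stem-cell-enriched over normal culture on the log2(TPM + 1) scale for each member (point, with bars of 1 SE), in wild type and knockout-labelled libraries of each line; filled points passed limma's adjusted threshold. The A549 knockout-labelled panel has 14 filled points, all to the right of 0, and PLK2 lies furthest left in both H2023 panels (-2.85 and -2.91).

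TP53INP1 rose with stem-cell-enriched culture in all 4 contrasts, with log2 fold changes of 1.45, 1.25, 1.56 and 2.22 in A549 wild type, A549 labelled knockout, H2023 wild type and H2023 labelled knockout. In H2023 it went from 0.85 and 1.01 to 4.74 and 4.66 TPM in wild type, and from 1.00 and 0.96 to 8.39 and 8.11 TPM with the label. CDKN1A rose in A549, by 1.29 ± 0.27 (log2, SE) in wild type and 2.34 ± 0.27 with the label (limma adjusted p = 0.00678 and 0.0011). Neither CDKN1A contrast in H2023 passed the test (limma adjusted p = 0.723 and 0.689). In A549 labelled knockout, FAS (2.02 ± 0.27), BTG2 (1.91 ± 0.25), ZMAT3 (1.36 ± 0.20), SPATA18 (1.17 ± 0.32), MDM2 (1.02 ± 0.15) and SESN1 (1.00 ± 0.24) also rose. MDM2 was at 29.1 and 30.8 TPM in normal and 56.3 and 67.6 TPM in stem-cell-enriched culture there.

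SPATA18, a gene of mitochondrial quality control, was the lowest member and rose in 3 of the 4 contrasts. It was at 1.02 and 1.44 TPM in A549 normal wild type and at 3.27 and 3.27 TPM in stem-cell-enriched wild type, with a log2 fold change of 0.94 ± 0.32 (SE). In A549 labelled knockout it was at 1.75 and 1.83 TPM and then at 3.38 and 8.02 TPM, 2 values far apart. The H2023 libraries labelled knockout had 0.08 and 0.04 TPM and then 1.12 and 0.65 TPM.

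PLK2 and GDF15 had the largest log2 fold changes in H2023 wild type, and PLK2 also with the label. PLK2 fell from 190 and 203 to 30.4 and 22.8 TPM in H2023 wild type and from 202 and 213 to 22.8 and 31.3 TPM with the label. Its log2 fold changes were -2.85 ± 0.18 and -2.91 ± 0.18 (SE, limma adjusted p = 0.000935 and 0.000475). In A549 wild type PLK2 fell too, from 114 and 95.7 to 53.8 and 47.0 TPM. GDF15 rose in H2023, from 61.6 and 26.6 to 216 and 247 TPM in wild type and from 29.1 and 26.6 to 72.2 and 117 TPM with the label. The log2 fold changes of GDF15 were 2.48 ± 0.39 and 1.69 ± 0.39 (SE), whereas in A549 wild type it fell by 0.80 on the log2 scale (limma adjusted p = 0.0411). That last call was lost with TPM rescaled to nuclear genes (-0.66, adjusted p = 0.0661) and without stem-cell-enriched wild-type replicate 2 (-0.39, adjusted p = 0.205).

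BAX fell in 3 contrasts, with log2 fold changes of -0.78 in A549 wild type, -0.47 in H2023 wild type and -0.67 in H2023 labelled knockout. In H2023 wild type the value was -0.23 with TPM rescaled to nuclear genes and -0.22 after centring, and passed under neither (limma adjusted p = 0.145 and 0.188). In A549 wild type DDB2 fell from 54.5 and 50.8 to 22.3 and 23.1 TPM (log2 fold change -1.18 ± 0.15 SE, limma adjusted p = 0.000573). FBXO22 fell there from 67.1 and 53.9 to 36.6 and 36.3 TPM, a log2 fold change of -0.71 ± 0.15 (SE). TP53I3 fell in H2023, from 24.1 and 31.4 to 14.1 and 14.7 TPM in wild type and from 23.7 and 24.9 to 14.5 and 16.5 TPM with the label. With the label its log2 fold change of -0.62 became -0.41 and -0.47 under those scalings and missed the threshold (limma adjusted p = 0.116 and 0.0776). NINJ1 rose in H2023, reaching 153 and 155 TPM in wild type and 132 and 125 TPM with the label. POLH, the translesion DNA polymerase eta, fell in H2023 wild type from 6.07 and 6.69 to 4.17 and 3.55 TPM, a log2 fold change of -0.60 that became -0.41 and -0.35 under those scalings and was then not called (limma adjusted p = 0.145 and 0.191). BTG2 rose in H2023 labelled knockout from 0.89 and 0.95 to 1.84 and 2.15 TPM.

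Single libraries moved the culture counts as well. In A549 labelled knockout the 14 calls became 9 without normal replicate 1, 7 without normal replicate 2 and 9 without stem-cell-enriched replicate 2, all higher. In H2023 wild type the 7 calls became 4 without normal replicate 2 or without stem-cell-enriched replicate 2. In H2023 labelled knockout the 9 calls became 5 without normal replicate 1 and 4 without normal replicate 2. The calls of SPATA18 in A549 wild type, of POLH in H2023 wild type, and of TP53I3 and BTG2 in H2023 labelled knockout were lost without any 1 of the 4 libraries compared.

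Of the regulators of p53, MDM4, which restrains p53 alongside MDM2, passed neither test in any comparison and was at 11.3 and 7.16 against 6.53 and 6.59 TPM in the stem-cell-enriched culture of A549. TP53BP1, a DNA damage scaffold, rose in that comparison from 12 and 15.3 to 24.4 and 22.5 TPM (log2 fold change 0.75 ± 0.16 SE, limma adjusted p = 0.0425). In A549 normal culture it was called in the authors' deposited table only (log2 fold change 0.38, adjusted p = 0.0387). The kinase gene HIPK2 was lower in the authors' deposited table in normal culture of both lines, at 26.9 and 17.2 against 10.3 and 14.2 TPM in A549 and at 27.2 and 27.9 against 22.2 and 16.9 TPM in H2023 (deposited adjusted p = 0.00475 and 0.00497). RCHY1, a ubiquitin ligase gene, was lower in the authors' deposited table in H2023 normal culture, with overlapping groups (adjusted p = 0.0484). The p53 family gene TP63 was lower in that deposited table of the authors in A549 stem-cell-enriched culture, at 2.13 and 1.3 against 0.58 and 1.05 TPM, and higher in the enriched H2023 libraries, at 1.3 and 1.66 against 4.06 and 7.08 TPM (adjusted p = 0.01 and 0.000854). None of HIPK2, RCHY1 and TP63 passed limma.

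A second list of 18 further p53 targets gave 5 genes higher and 1 lower in A549 stem-cell-enriched culture by limma, with a median log2 fold change of 0.16, where 6.04% of all genes were higher and 7.2% lower. KITLG, the ligand of the KIT receptor, was at 2.70 and 2.45 TPM in wild type and at 9.92 and 15.8 TPM with the label (log2 fold change 1.92 ± 0.26 SE, limma adjusted p = 0.0122). TNFRSF10D, a decoy receptor of the ligand TRAIL, went from 13.8 and 15.5 to 38.6 and 44.5 TPM, and EDA2R, a receptor of ectodysplasin A2, from 7.08 and 5.37 to 14.1 and 16.3 TPM. TLR3, an innate immune receptor of double-stranded RNA, was lower in the authors' deposited table, at 11.9 and 5.18 against 2.54 and 3.41 TPM (adjusted p = 0.000894). In A549 normal culture 2 rose and 0 fell (4.54% and 6.28% of all genes), namely KITLG (4.74 and 5.39 to 16.7 and 21.6 TPM) and TNFRSF10D (11.4 and 11.6 to 21.6 and 25.6 TPM). In H2023 0 passed limma, where 0% of all genes did. The authors' deposited table had KITLG lower in H2023 normal culture, at 19.3 and 16.7 against 8.07 and 8.80 TPM (deposited adjusted p = 1.71e-09). The hydrolase gene CMBL was lower there too, at 132 and 136 against 57.0 and 69.3 TPM (deposited adjusted p = 2.31e-12), and in the enriched culture (deposited adjusted p = 0.0379).

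The 14 cell-cycle genes that p53 is known to lower through p21 were above wild type in A549 stem-cell-enriched culture in 14 of 14 cases, with a median log2 fold change of 0.52. By limma 0 of them passed, 7 had an unadjusted p under 0.05 (30.3% of all genes did), and the authors' deposited table called 4 higher (9.29% of tested genes). Among those were E2F1 (4.05 and 6.80 against 10.2 and 14.0 TPM), BUB1 (deposited log2 fold change 0.98) and CDC20 (18.2 and 13.3 against 20.7 and 33.7 TPM). Under stem-cell enrichment of H2023, 14 of 14 were below wild type, with a median of -0.37. Limma called 0 of them, as it called 0% of all genes there, and the authors' deposited table had 3 lower (2.85% of tested genes), namely BUB1, CDC20 and MYBL2. In A549 normal culture MYBL2 (97.0 and 91.1 against 52.3 and 46.1 TPM) and CDK1 fell by limma, where 6.28% of all genes did. The list's median there was -0.31. With stem-cell-enriched culture all 14 lay below normal culture in each of the 4 culture contrasts. Their median log2 fold changes were -2.50 (A549 wild type), -1.77 (A549 labelled knockout), -1.34 (H2023 wild type) and -1.82 (H2023 labelled knockout). By limma 21.6%, 9.87%, 17.4% and 19.2% of all genes were called lower in the same order. The levels of CDKN1A, whose product inhibits cyclin-dependent kinases, are given above for the same libraries.

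**Figure D5:**
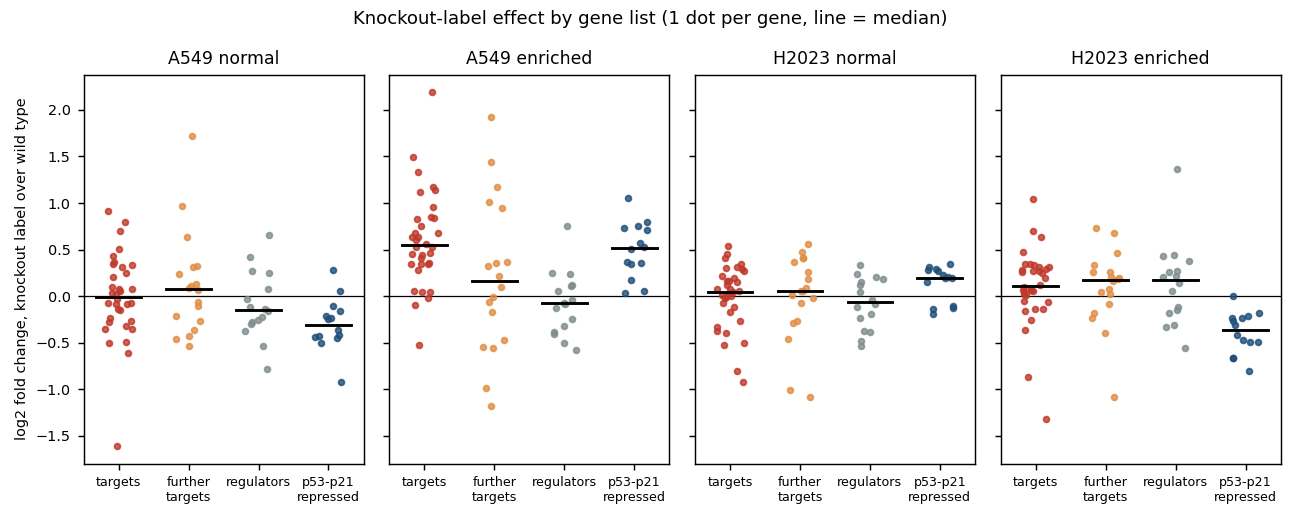
Log2 fold change of the knockout label over wild type for each gene (dot) of 4 lists, with the median as a line, in 4 comparisons. In A549 enriched culture the targets (median 0.54) and the p53-p21 repressed genes (median 0.52) both lie mostly above 0, while in H2023 enriched culture the repressed genes have a median of -0.37.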

How the data were processed

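RNA sequencing libraries of stranded TruSeq mRNA, per the labels' protocols, were reduced by the authors to 4 deposited tables, 1 per line and culture. The submitters' processing notes name HISAT2, StringTie and GRCh38. Their roles, the annotation and the use of strand in counting are not given in the sources used here. The deposited TPM values of the authors are scaled within each library. The deposited tables also hold the authors' log2 fold changes with standard errors, a test statistic (a score), p-values with adjusted p-values, and a mean normalized count, a signal, with column names used by DESeq2, per the file headers. The statistic had the sign opposite to the fold change in all rows, so directions came from the fold change. Repeated rows of an identifier were dropped, leaving 18227 genes.

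The main test was limma 3.58.1, run in R 4.3.3 on log2(TPM + 1) for all genes without a filter, two-sided and with its trend option. P-values were adjusted by Benjamini-Hochberg, and 0.05 was the threshold. On this scale fold changes of low genes are understated. Knockout comparisons used the 4 libraries of a line and culture. Culture contrasts and interaction terms used 8 libraries. The difference of the authors' deposited log2 fold changes was an alternative to the interaction term. The test was checked on simulated libraries. Coordinates of genes are from GENCODE 29.

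The members and the lists were chosen with earlier results of these data known. Values in every library are given for 10 well-known effectors and, in each comparison, for up to 8 members with the largest fold change among those past either threshold. For the other lists MDM4 is named, with up to 3 genes per list and comparison by the same rule. A further gene of that rule is not reported here, and CDKN2A was not analysed here. Alternatives were another pseudocount (0.1), a filter on a mean of at least 1 TPM, rescaling to nuclear genes, centring on the library median, no trend, a replicate block, another set of libraries for the spread, and leaving out each library. The phrase "stem-cell-enriched" stands for the oncosphere samples.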

Additional observations from a re-analysis of the deposited data

Results flagged for a closer look

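Each of the following results was marked because the knockout-label effect on a member differed between the 2 cultures of a line or between the 2 lines, by limma's interaction term with a Benjamini-Hochberg adjusted p under the threshold. All values are differences of log2 fold changes on the log2(TPM + 1) scale.

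In A549, stem-cell-enriched minus normal culture, the differences were 1.67 for FAS, 1.59 for GDF15, 1.46 for PLK2, 1.25 for ZMAT3, 1.02 for TNFRSF10A, 0.98 for TRIAP1 and 0.93 for DDB2. FAS had an effect of 2.19 under stem-cell enrichment against 0.51 in normal culture, and in both the labelled libraries lay above wild type without overlap. PLK2, TNFRSF10A and TRIAP1 changed sign between the cultures, from -0.32 to 1.14, from -0.61 to 0.41 and from -0.35 to 0.63.

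In normal culture, H2023 minus A549, the differences were -1.71 for NINJ1, 0.92 for TNFRSF10A, -0.87 for TP53I3, 0.80 for PERP, -0.76 for TP53INP1 and -0.74 for GADD45A. NINJ1, a gene of membrane rupture, had effects of 0.91 in A549 and -0.80 in H2023.

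In stem-cell-enriched culture, H2023 minus A549, the differences were -1.85 for FAS, -1.50 for GADD45A, -1.39 for ZMAT3, 1.15 for PERP, -1.11 for PLK2, -1.05 for FDXR and -0.61 for BAX. GADD45A and PERP had effects of opposite sign in the lines, 0.63 and -0.10 in A549 against -0.87 and 1.04 in H2023. The groups of 2 libraries were too small for a test of single outlying libraries.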

How the results depend on the processing

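With 2 libraries per group the precision is low, and TPM keeps no depth, so limits for low genes cannot be set. Of 1984 alternative values of 128 member fold changes, 1572 were classed as the same as the main result, 320 as weaker and 39 as stronger. The remaining 53 changed sign, all in comparisons where the member concerned passed no test. Some of these members, such as BAX and FAS, passed in other comparisons. Fits that left out a library are among the alternative values. The replicate numbers are shared between groups, but the labels do not say that they mark a batch. Differences between same-numbered libraries correlated with r = 0.075 and 0.131 in normal and enriched A549, and 0.027 and 0.461 in H2023, over 14823 genes.

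By the authors' deposited test the called members numbered 8 in place of 4 (A549, normal culture), 18 in place of 11 (A549, enriched), 2 in place of 0 (H2023, normal culture) and 4 in place of 0 (H2023, enriched). From differences of those fold changes they numbered 11 between A549 cultures and 12 between lines under enrichment, each in place of 7. With the spread of all 8 libraries of H2023, 1 member was called in its normal culture and 2 under enrichment. In H2023 normal culture 1 was called with the filter at 1 TPM and 1 after centring. In the culture contrast of H2023 wild type, 2 were called with the spread of the 4 libraries compared. H2023 labelled knockout gave 15 with the filter, 14 after centring and 15 with the replicate block in place of 9. Without the trend, the differences between A549 cultures and between lines under enrichment gave 3 and 4, and the latter gave 11 with the replicate block. The block moved no other count by more than 1.5 times. In the knockout comparisons, leaving out 1 library left 1 in a group, so no knockout call is shown to hold with a library left out. The members' median log2 fold change then ran from -0.13 to 0.1 (A549, normal) and from 0.48 to 0.6 (A549, enriched). It ran from 0.02 to 0.07 in H2023 normal culture and from 0.02 to 0.19 under enrichment. In the other comparisons the spread came from 7 libraries, and the called members with 1 left out are given as ranges. The ranges were 9 to 14, 7 to 15, 4 to 6 and 4 to 11 in the culture contrasts (A549 wild type, A549 labelled, H2023 wild type, H2023 labelled), 1 to 3 and 0 to 0 between cultures (A549, H2023), and 1 to 8 and 0 to 5 between lines (normal, enriched). The causes of these differences were not tested.

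The members whose log2 fold change changed sign ran over the following ranges with 1 library left out. In A549 normal culture these were -0.15 to 0.10 for BAX, which was 0.08 without wild type replicate 1, 0.01 with nuclear genes only and 0.02 after centring, -0.19 to 0.24 for BBC3 (-0.15 without labelled replicate 1) and -0.25 to 0.10 for TNFRSF10B. In enriched A549 they were -0.43 to 0.39 for GDF15 (0.19 without labelled replicate 2) and -0.01 to 0.57 for PPM1D. In H2023 normal culture they were -0.32 to 0.29 for BBC3 (0.13 without labelled replicate 1), -0.08 to 0.08 for FAS (-0.05 without labelled replicate 2), -1.12 to 0.06 for GDF15, -0.20 to 0.23 for MDM2 (-0.01 without labelled replicate 1), -0.07 to 0.51 for SESN1 (-0.02 without wild type replicate 2) and -0.09 to 0.24 for TNFRSF10B. In enriched H2023 they were -0.01 to 0.15 for BAX (-0.02 after centring), -0.70 to 0.41 for CDKN1A (0.37 without labelled replicate 1), -0.19 to 0.56 for MDM2, and -0.12 to 0.23 for TNFRSF10B, which was -0.11 without labelled replicate 2, -0.04 after centring and -0.07 in the authors' deposited table.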
